A study of Mus musculus with 19 samples.

Results

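The comparison pools the loss of Ager over livers with and without Myd88. It sets 10 arrays without Ager against 9 arrays with it, which together are all 19 arrays of the series, and Myd88 genotype entered the model as a covariate. Arrays were assigned by genotype alone. The Ager-deleted side held 6 Ager_null and 4 Ager_Myd88_null mice, and the other side 5 WT and 4 Myd88_null mice. All were male C57BL/6 mice of 10 to 12 weeks, killed 2 h after 85% of the liver had been resected, so every group carries the resection and no unresected liver was analysed here. How either allele was made, the strain it was made in and the number of backcrosses are not stated by the labels. RNA was hybridised to Affymetrix arrays, 1 per sample, and levels are the authors' log2 values, so a difference of 1 is a doubling.

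Ager encodes RAGE, the receptor for advanced glycation end-products, a membrane receptor of the immunoglobulin family. It binds sugar-modified proteins, the nuclear protein HMGB1 released by damaged cells, and S100 proteins, and it signals to NF-kB and MAP kinases. MyD88 links the interleukin-1 receptor and nearly all Toll-like receptors to NF-kB, and several RAGE ligands also bind Toll-like receptors. In mice Ager lies in the class III region of the major histocompatibility complex on chromosome 17. After partial hepatectomy the remnant liver passes through an early priming phase of immediate early genes, cytokines and acute phase genes before hepatocytes replicate their DNA.

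Of 8515 genes tested, 22 (0.258%) differed between livers without and with Ager at an adjusted p under 0.05 (limma, Benjamini-Hochberg over all tested genes). Of these, 13 (0.153%) rose without Ager and 9 (0.106%) fell. On chromosome 17, which carries Ager, 16 of 400 tested genes (4%) were called, against 6 of 8115 (0.0739%) on other chromosomes or with no position. The called genes on chromosome 17 comprised 9 that rose and 7 that fell, and those elsewhere 4 that rose and 2 that fell. The count elsewhere hung on single arrays, at 1 without WT 5, 2 without Ager_Myd88_null 4, 3 without Ager_null 5 or Myd88_null 4 and 18 without Ager_null 6, whereas that on chromosome 17 stayed between 13 and 17 (all calls, 34 without Ager_null 6). The largest rises were in H2-Bl, a class I histocompatibility gene, and Abca3, a lipid transporter known from lung surfactant. Among the falls were Tedc2, a centriole protein gene, Riok2, a kinase needed to mature the small ribosomal subunit, and the zinc-finger gene Zfp945, whose level without Ager was mostly under the filter. The strongest change per unit of error in a gene tied to RAGE biology was in Glo1, the glyoxalase that clears methylglyoxal, a precursor of advanced glycation end-products.

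Promoter sequence is shown for 4 called genes, picked to cover a rise and a fall on chromosome 17 and a fall elsewhere, with Glo1 added for its place in the glycation pathway. The sequences are RefSeq's for GRCm38.p6, 5′ to 3′ on the strand of the gene, from 250 bases before to 50 bases after the annotated start. Capitals mark matches on either strand to GGGNNNNNCC, a loose form of the site bound by NF-kB, a factor downstream of RAGE and of MyD88. The windows lie at chr17:30612610-30612909 on the minus strand for Glo1 and at chr17:24351773-24352072 on the plus strand for Abca3. They lie at chr17:17374082-17374381 on the plus strand for Riok2 and at chr19:34747279-34747578 on the minus strand for Slc16a12, a creatine transporter gene that fell.
Glo1: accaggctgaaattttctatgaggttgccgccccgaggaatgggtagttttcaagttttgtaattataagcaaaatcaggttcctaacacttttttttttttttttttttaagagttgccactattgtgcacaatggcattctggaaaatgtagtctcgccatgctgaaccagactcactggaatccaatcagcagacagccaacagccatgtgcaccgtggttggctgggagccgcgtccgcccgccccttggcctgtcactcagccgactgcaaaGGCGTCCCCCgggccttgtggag
Abca3: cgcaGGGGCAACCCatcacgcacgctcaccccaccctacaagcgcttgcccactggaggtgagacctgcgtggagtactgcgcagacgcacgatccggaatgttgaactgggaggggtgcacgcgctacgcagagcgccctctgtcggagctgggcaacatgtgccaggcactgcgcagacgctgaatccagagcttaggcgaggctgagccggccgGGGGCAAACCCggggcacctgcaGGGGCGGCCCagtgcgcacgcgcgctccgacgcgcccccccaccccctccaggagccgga
Riok2: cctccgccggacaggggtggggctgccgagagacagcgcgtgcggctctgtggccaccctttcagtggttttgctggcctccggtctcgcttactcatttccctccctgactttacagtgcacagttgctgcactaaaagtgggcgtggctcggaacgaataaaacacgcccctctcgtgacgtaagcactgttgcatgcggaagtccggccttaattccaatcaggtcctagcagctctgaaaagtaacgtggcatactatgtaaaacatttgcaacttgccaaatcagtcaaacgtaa
Slc16a12: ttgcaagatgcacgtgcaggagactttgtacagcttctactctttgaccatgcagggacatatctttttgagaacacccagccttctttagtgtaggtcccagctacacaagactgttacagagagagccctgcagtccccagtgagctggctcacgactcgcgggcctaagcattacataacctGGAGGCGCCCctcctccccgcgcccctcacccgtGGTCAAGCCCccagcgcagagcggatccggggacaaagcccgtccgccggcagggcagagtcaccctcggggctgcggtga
The Glo1 window holds 1 match, the Abca3 window 4, the Slc16a12 window 2 and the Riok2 window 0. The pattern is common, with a match in 16686 of 32851 RefSeq promoters of this length (50.8%), and 7 of the 16 called genes with a promoter in the table had one (43.8%). The stricter pattern GGGNNTTNCC, every match of which is also a match to the looser one, was in 1575 of all promoters (4.79%) and in 0 of the 16. A match describes the letters only.

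The arrays carried a check of Myd88 and none of Ager. The Myd88 probe set read 5.55 ± 0.29 (SD) in the 5 WT livers and 5.91 ± 0.38 in the 6 Ager_null livers. It read 3.49 ± 0.34 and 3.45 ± 0.58 in the 4 Myd88_null and 4 Ager_Myd88_null livers. Both Ager probe sets were dim in every group, with means of 3.10 to 3.37 for the first and 2.19 to 2.52 for the second, under the log2 value of 4 required on at least 4 arrays for a test. They therefore check nothing about the Ager labels. The extraction text in the labels names glomeruli where source and tissue say liver. Hepatocyte markers averaged between 12.74 and 12.97 on every array, while 1 of 13 kidney and glomerulus markers exceeded log2 4 on all arrays. The Myd88_null 4 array stood furthest from the rest, with a median correlation of 0.965 to the others against at least 0.979 for each other array. The array descriptions carry an S number whose meaning is not stated. All 6 Ager_null arrays fall in S 13 to 20, together with WT 5 and Myd88_null 4, and the other arrays in S 1 to 6 or S 7 to 12. A fit with these 3 ranges as a block is therefore given beside the results it moves.

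The H2-Bl signal gave the clearest separation. H2-Bl belongs to the nonclassical class I genes, which are similar in sequence to one another, and cross-hybridisation of its single probe set was not tested. Its level was 6.73, 6.99, 6.91, 7.63 and 6.98 in the 5 WT livers and 7.14, 5.70, 5.85 and 6.44 in the 4 Myd88_null livers. It was 9.20, 9.39, 9.38 and 9.10 in the Ager_Myd88_null livers, and ran from 8.87 to 9.73 with a median of 9.15 in the 6 Ager_null livers. Every array without Ager lay above every array with it. The pooled difference was 2.49 ± 0.19 (SE), or 5.63-fold, with an adjusted p of 4.4e-07 (limma).

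Abca3 showed the next largest rise. Its level was 6.51, 6.42, 7.76, 7.15 and 6.45 in WT livers and 6.55, 8.02, 8.46 and 8.82 in Myd88_null livers. Without Ager it was 9.78, 9.82, 9.54 and 9.76 in Ager_Myd88_null livers and 9.18 to 10.21, median 9.73, in Ager_null livers. The sides did not overlap, although the Myd88_null arrays spread over more than 2 log2 units. The difference was 2.39 ± 0.28, or 5.25-fold (limma adjusted p = 1.2e-04), and a second probe set of the gene gave 2.52.

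Meiob, a single-strand DNA-binding protein of meiosis, also rose. It read 5.86, 6.35, 6.62, 5.54 and 6.57 in WT and 6.79, 6.31, 5.88 and 5.21 in Myd88_null livers. It read 7.50, 7.95, 8.32 and 8.06 in Ager_Myd88_null livers and 6.73 to 7.66, median 7.12, in Ager_null livers. Groups were apart within each Myd88 background, while Myd88_null 1 overlapped the Ager_null range. The difference was 1.37 ± 0.22 (limma adjusted p = 0.0047). Anks1, an adaptor with ankyrin repeats that binds Eph receptors, was near the limit of detection with Ager present, at 3.85, 4.08, 4.44, 3.80 and 4.25 in WT and 3.63, 3.97, 4.06 and 4.58 in Myd88_null livers. In Ager_Myd88_null livers it was 4.41, 5.34, 5.11 and 5.29, and in Ager_null livers 4.45 to 5.42, median 4.76. Myd88_null 4 and WT 3 overlapped the lowest arrays without Ager. The rise was 0.84 ± 0.15 (limma adjusted p = 0.018).

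The other rises on chromosome 17 were smaller. Glo1 had means of 13.01 ± 0.13 (SD) over 5 WT and 13.16 ± 0.18 over 4 Myd88_null livers, against 13.84 ± 0.10 over 6 Ager_null and 13.78 ± 0.13 over 4 Ager_Myd88_null livers. All arrays without Ager were above all arrays with it, and the difference of 0.74 ± 0.07 amounted to 1.67-fold (limma adjusted p = 2.2e-05). All 4 Glo1 probe sets were higher without Ager, by 0.74, 0.84, 1.21 and 0.78. Tubb5, a beta-tubulin, rose by 0.78 ± 0.10 (limma adjusted p = 2.1e-04), while its other, dimmer probe set showed -0.002. Cbs, which condenses homocysteine with serine, rose by 0.58 ± 0.11 (limma adjusted p = 0.018), and its other probe set gave 0.84. Tbl3, a component of the complex that processes pre-ribosomal RNA, rose by 0.68 ± 0.13 (limma adjusted p = 0.021, and 0.055 without Ager_Myd88_null 4). With the S ranges as a block, Cbs and Tbl3 no longer passed, at adjusted p of 0.052 and 0.060 (limma).

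Rnf5, the first annotated gene beside Ager, rose by 0.49 ± 0.08 (limma adjusted p = 0.0047). Rnf5 encodes a ubiquitin ligase of the endoplasmic reticulum membrane. Its level was 10.59, 10.45, 10.28, 10.26 and 10.11 in WT, 10.45, 10.44, 10.59 and 10.27 in Myd88_null, and 10.76, 10.80, 10.90 and 10.84 in Ager_Myd88_null livers. In Ager_null livers it ran from 10.66 to 11.11 with a median of 10.93, so no array without Ager fell within the range of those with it. The nearest tested genes, named here for their position, did not pass. Pbx2, on the other side of Ager, differed by 0.21 (95% interval -0.09 to 0.51), Gpsm3 by 0.12, Ppt2 by 0.20 (-0.01 to 0.40), Fkbpl by 0.19 and Atf6b by 0.22. Within 150 annotated genes of Ager in either direction, 4 of 87 tested genes were called (4.6%), namely Rnf5, Tubb5, H2-Bl and Sik1.

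**Figure D1:**
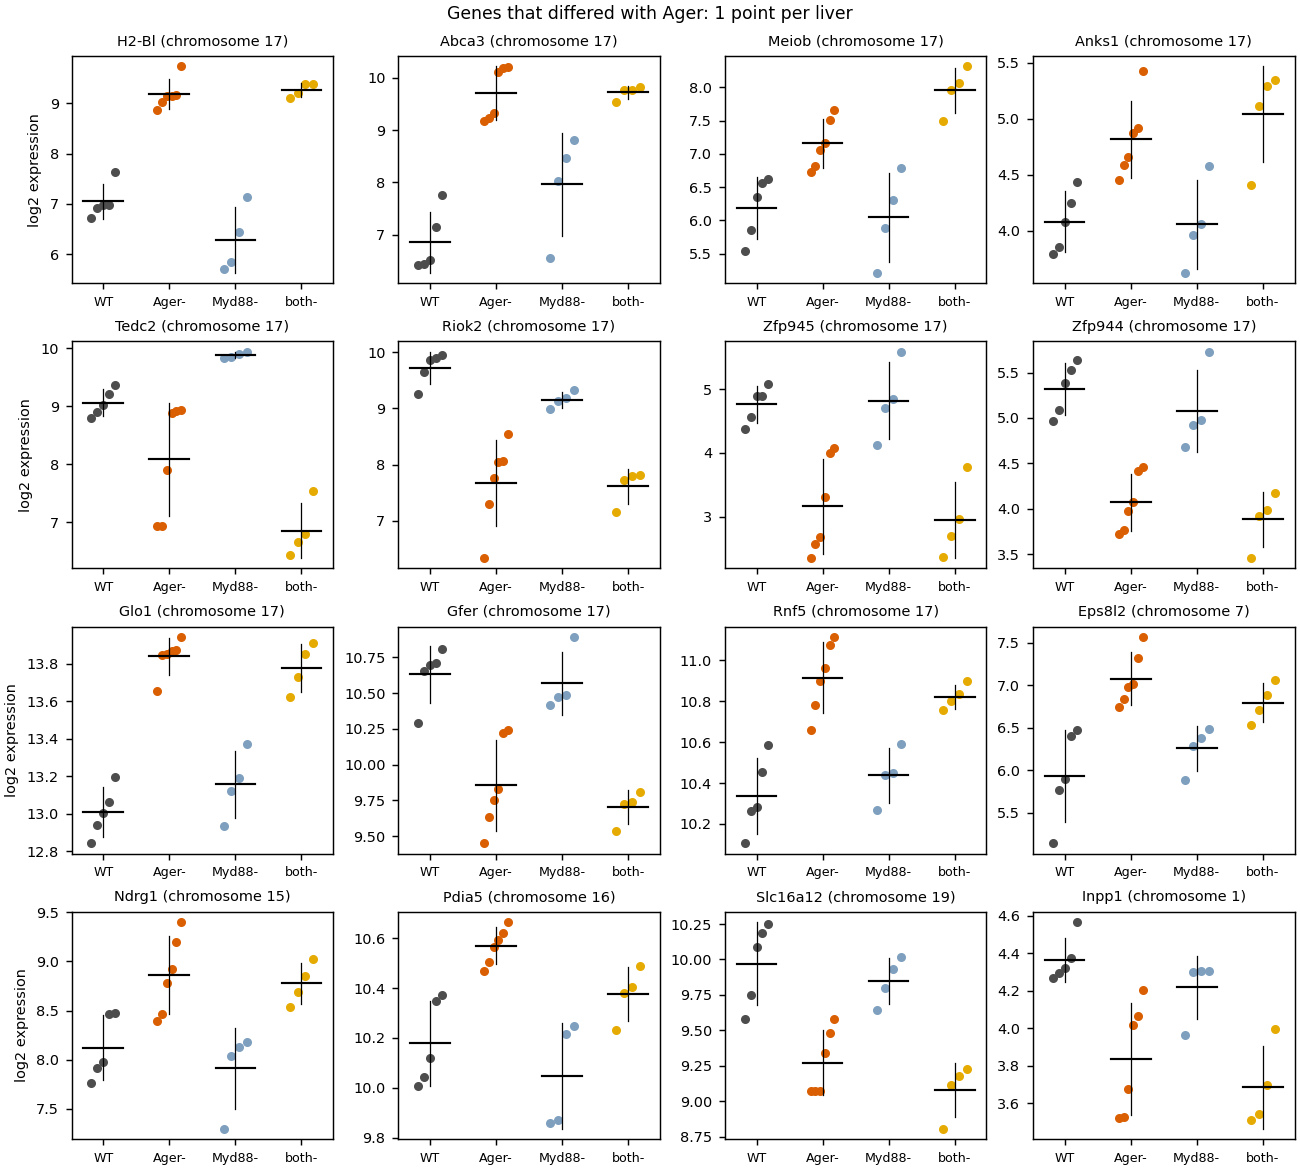
Log2 level of 16 called genes on each array (points), by genotype group, with the group mean as a horizontal bar and its SD as a vertical line. The groups without Ager lie on one side of those with it for genes such as H2-Bl, Abca3, Glo1 and Riok2, while Ndrg1, Pdia5, Slc16a12 and Inpp1 overlap.

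Riok2 was the called gene furthest from Ager on chromosome 17 and fell the most per unit of error. It read 9.25, 9.65, 9.85, 9.95 and 9.90 in WT livers and 9.18, 9.13, 8.98 and 9.33 in Myd88_null livers. It read 7.72, 7.79, 7.81 and 7.15 in Ager_Myd88_null livers and 6.34 to 8.54, median 7.90, in Ager_null livers. All arrays without Ager were lower than all others. The level fell by 1.83 ± 0.21 on the log2 scale, making it 3.56-fold lower (limma adjusted p = 1.2e-04), and the other probe sets past the filter gave -0.89 and -0.67.

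Tedc2, part of a tubulin complex of the centriole, was the only called gene whose interaction with Myd88 passed the adjusted threshold. It read 9.22, 9.02, 9.38, 8.80 and 8.91 in WT and 6.94 to 8.94, median 8.40, in Ager_null livers. In Myd88_null livers it read 9.83, 9.94, 9.86 and 9.91, and in Ager_Myd88_null livers 7.54, 6.44, 6.66 and 6.80. The Myd88-deficient groups were wide apart, while WT and Ager_null livers overlapped. Pooled, Tedc2 fell by 1.84 ± 0.34 (limma adjusted p = 0.020), made up of -0.97 ± 0.34 with Myd88 and -3.02 ± 0.40 without it. The interaction of -2.05 ± 0.53 had a limma adjusted p of 0.048. Without Ager_Myd88_null 4 the pooled fall had a limma adjusted p of 0.051.

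Zfp943, Zfp944 and Zfp945, zinc-finger genes that lie close together far from Ager, fell together. Zfp945 read 4.89, 4.56, 4.38, 4.89 and 5.09 in WT, 5.59, 4.85, 4.70 and 4.13 in Myd88_null, and 2.96, 2.38, 2.69 and 3.77 in Ager_Myd88_null livers. In Ager_null livers it ran from 2.35 to 4.07, median 3.002, under the level of every array with Ager, and it fell by 1.71 ± 0.25 (limma adjusted p = 0.0011). A floor at log2 4 reduced the difference to -0.78 (limma adjusted p = 0.0094). Zfp944 read 5.39, 5.08, 5.64, 4.97 and 5.53 in WT, 5.73, 4.68, 4.98 and 4.92 in Myd88_null, and 3.99, 3.92, 3.46 and 4.17 in Ager_Myd88_null livers. Its Ager_null range was 3.72 to 4.46, median 4.03, again below all arrays with Ager, and it fell by 1.23 ± 0.15 (limma adjusted p = 1.2e-04). Zfp943 fell by 0.77 ± 0.15 (limma adjusted p = 0.026, and 0.060 with the S block), and did not pass without WT 2, WT 3, WT 5, Ager_null 3, Myd88_null 1 or Ager_Myd88_null 4. For Zfp945, whose other probe sets were under the filter, those gave 0.28 and 0.20, so its fall rests on 1 probe set. The neighbours Zfp942 at -0.77 ± 0.18, Zfp995 at -0.78 ± 0.21 and Zfp758 at -0.90 ± 0.29, named after their values were seen, did not pass (limma adjusted p of 0.090, 0.18 and 0.30).

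Gfer and Sik1 completed the falls on chromosome 17. Gfer encodes augmenter of liver regeneration, a sulfhydryl oxidase that also serves protein import into mitochondria. On its brighter probe set it averaged 10.63 ± 0.20 (SD) over 5 WT and 10.57 ± 0.22 over 4 Myd88_null livers, against 9.86 ± 0.32 over 6 Ager_null and 9.70 ± 0.12 over 4 Ager_Myd88_null livers, with no overlap between the sides. That probe set fell by 0.81 ± 0.11 (limma adjusted p = 4.5e-04). The dimmer Gfer probe set moved the opposite way, by 2.23 ± 0.20 (limma adjusted p = 2.0e-06 over all probe sets), so the arrays give no single direction for the gene. Sik1, a kinase that restrains CREB-driven transcription in liver, read near the filter, at 4.29 in WT, 3.49 in Ager_null, 4.55 in Myd88_null and 3.72 in Ager_Myd88_null livers on average. It fell by 0.82 ± 0.11 (limma adjusted p = 5.7e-04), and was at -0.43 with a floor at log2 4 (0.011).

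**Figure D2:**
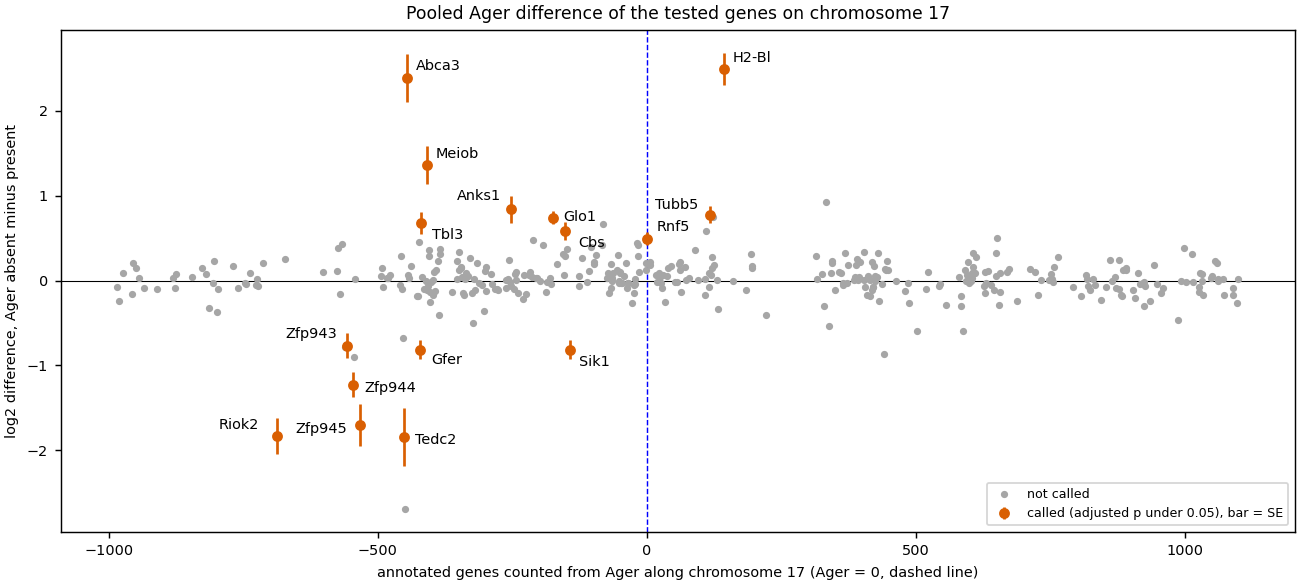
Pooled log2 difference (Ager absent minus present) of the 400 tested genes on chromosome 17, against the number of annotated genes between each and Ager (dashed line at 0). The 16 called genes, with SE bars, run from Riok2 at -688 to H2-Bl at 143 and hold both rises and falls.

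Positions on chromosome 17 were counted in annotated genes from Ager, negative before it and positive after it. The called genes reached from -688 (Riok2) to 143 (H2-Bl), with 13 before Ager and 3 after. Between those positions 205 genes were tested, of which 41 had an unadjusted p under 0.05. The stretch was bounded by the called genes, so it holds all 16 of them by construction and is not set against the rest of the chromosome. Over the whole chromosome 57 of 400 tested genes did (14.2%), against 706 of 8115 elsewhere (8.7%). The called genes were not evenly spread. From -575 to -533, where the zinc-finger genes lie, 3 of 11 tested genes were called, and from -493 to -401 5 of 32 were, against 0 of 32 from -398 to -300. Over the whole chromosome a difference above 0.5 in either direction was seen in 29 genes (7.25%), against 193 (2.38%) elsewhere, while the median size was alike at 0.11 and 0.10. The largest difference on the chromosome belonged to a gene that was not called. Ccnf, which encodes cyclin F and is the annotated neighbour of Tedc2, was named after its values were seen. It differed by -2.69 ± 0.62 (limma adjusted p = 0.089), with group means of 6.65 in WT, 5.09 in Ager_null, 7.65 in Myd88_null and 3.40 in Ager_Myd88_null livers and an SD of 2.08 among the Ager_null arrays.

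Other probe sets of the called genes mostly moved the same way. Of 13 further probe sets that passed the filter, 11 had the same sign as the one used, each at an unadjusted p under 0.05, and 1, for Gfer, had the opposite sign at that level. The remaining 11 probe sets were under the filter. With the mean of a gene's probe sets, dim ones included, Tubb5 (0.39) and Zfp943 (-0.37) did not pass, nor did Ndrg1, while Riok2 and Zfp944 passed at -0.86 and -0.59. Probe sets with no gene symbol gave 2 calls among 696 tested (0.287%). The first, 1458719_at, read 2.71 in WT, 6.08 in Ager_null, 2.62 in Myd88_null and 6.44 in Ager_Myd88_null livers, a difference of 3.56 ± 0.20. The other, 1435872_at, read 6.87, 4.30, 8.36 and 3.24 in the same order, a difference of -3.65 ± 0.41. Levels of 1458719_at with Ager, and of 1435872_at in Ager_Myd88_null livers, were under the log2 4 of the filter, so the sizes of these differences are uncertain. Which genes these probe sets read is not given in the annotation used here.

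**Figure D3:**
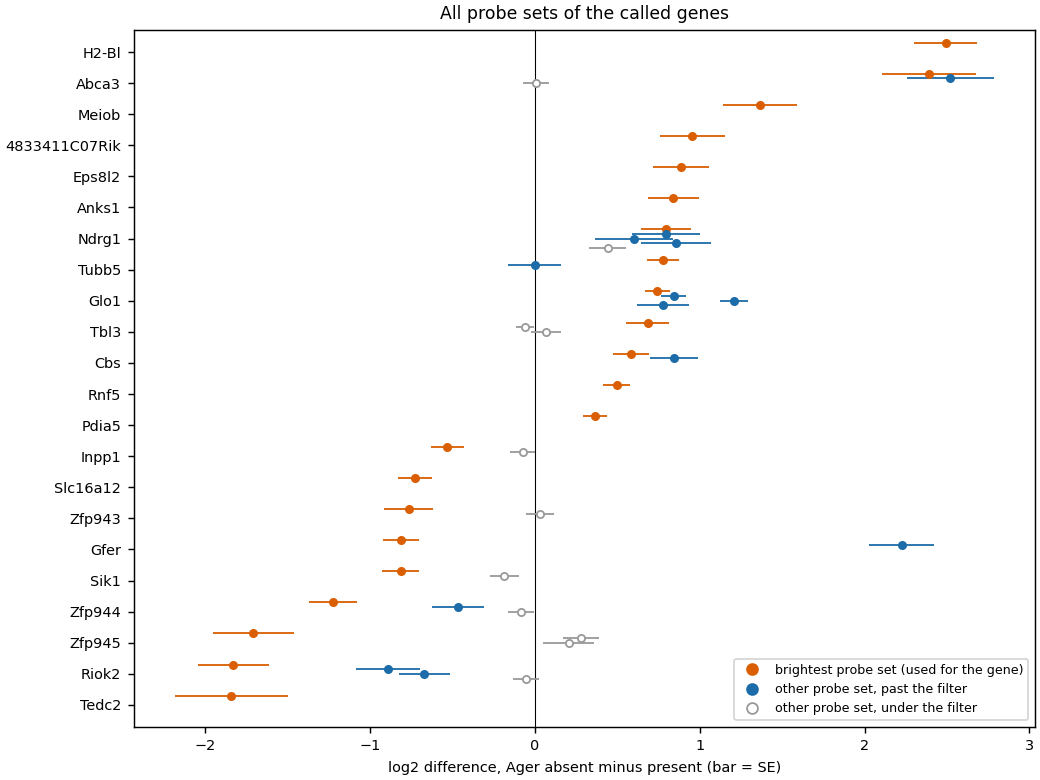
Pooled log2 difference of every probe set of the 22 called genes, with filled points for probe sets past the filter. Glo1 and Abca3 rise on each probe set past the filter, while those of Gfer lie at -0.81 and 2.23.

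Away from chromosome 17, Eps8l2 was the largest named rise. Eps8l2 belongs to a family of proteins that organise actin. Its level was 6.40, 6.47, 5.77, 5.14 and 5.90 in WT and 6.38, 6.48, 6.28 and 5.88 in Myd88_null livers. It was 6.53, 7.06, 6.70 and 6.88 in Ager_Myd88_null livers and 6.74 to 7.57, median 6.99, in Ager_null livers. The sides did not overlap, but they lay close, with 6.53 the lowest level without Ager and 6.48 the highest with it. The rise was 0.88 ± 0.17 (limma adjusted p = 0.023), and did not pass without WT 3, WT 5, Ager_null 5, Myd88_null 4, Ager_Myd88_null 2 or Ager_Myd88_null 4.

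Ndrg1, a gene induced by hypoxia and other stress, read 7.98, 7.76, 8.47, 8.47 and 7.92 in WT and 8.04, 8.13, 8.18 and 7.30 in Myd88_null livers. It read 8.54, 8.69, 8.86 and 9.02 in Ager_Myd88_null livers and 8.40 to 9.40, median 8.85, in Ager_null livers. The lowest Ager_null array overlapped the highest WT arrays, and the rise did not pass without WT 2, WT 5 or Ager_Myd88_null 4. Ndrg1 rose by 0.79 ± 0.15 (limma adjusted p = 0.021), and its 3 other probe sets past the filter gave 0.80, 0.60 and 0.86. Pdia5, a disulfide isomerase of the endoplasmic reticulum, read 10.35, 10.01, 10.37, 10.04 and 10.12 in WT, 9.87, 10.22, 10.25 and 9.86 in Myd88_null, and 10.23, 10.38, 10.49 and 10.40 in Ager_Myd88_null livers. Its Ager_null range was 10.47 to 10.66, median 10.58. The groups overlapped when pooled, and the rise was small, 0.36 ± 0.08 (limma adjusted p = 0.041), and passed in 6 of the 19 fits that left out 1 array. An unnamed gene model on chromosome 8 completed the rises elsewhere, at 0.95 ± 0.20, and passed in 4 of those fits.

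Slc16a12, the creatine transporter whose promoter is shown above, fell with the smallest adjusted p outside chromosome 17. It read 9.58, 9.75, 10.18, 10.25 and 10.09 in WT and 9.93, 9.65, 9.80 and 10.02 in Myd88_null livers. Without Ager it read 9.11, 9.18, 8.81 and 9.23 in Ager_Myd88_null livers and 9.07 to 9.58, median 9.21, in Ager_null livers. Only WT 1 met the Ager_null range. Slc16a12 fell by 0.73 ± 0.10 (limma adjusted p = 0.0011). Inpp1, an inositol phosphate phosphatase, was dim, at 4.27, 4.30, 4.57, 4.32 and 4.37 in WT, 4.30, 4.31, 4.30 and 3.97 in Myd88_null, and 3.70, 3.99, 3.54 and 3.51 in Ager_Myd88_null livers. With an Ager_null range of 3.52 to 4.20, median 3.85, it overlapped through Myd88_null 4. It fell by 0.53 ± 0.10 (limma adjusted p = 0.021, and 0.060 with the S block), and did not pass without WT 3, WT 5 or Ager_Myd88_null 4. It was at -0.28 with a floor at log2 4 and -0.30 with the mean of its probe sets, and passed in neither (limma adjusted p of 0.061 and 0.15).

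Counts of separated genes followed the same division. All arrays without Ager were above or below all arrays with it for 10 of the 8515 tested genes (0.117%), and these 10 were all called. Groups were apart in the same direction within both Myd88 backgrounds for 13 genes (0.153%), again all called, of which 12 lie on chromosome 17 and 1, Eps8l2, elsewhere. The 22 called genes kept their sign in each of the 3 S ranges, as did 1553 (18.2%) of all tested genes. The 22 were selected on these same arrays, which favours a kept sign, so the share of all tested genes is no matched comparison. The ranges also hold few arrays. The range of the Ager_null arrays sets them against 1 WT array, and another sets Ager_Myd88_null arrays against 1 Myd88_null array. Blocking on S range gave 45 calls (0.528%), 14 of them higher (0.164%) and 31 lower, including 18 of the 22. The 27 added calls were 3 higher and 24 lower, and 3 of them lie on chromosome 17. The part that S range plays in the calls was not tested beyond this fit.

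The pooled difference combines contrasts that share no array, Ager_null against WT and Ager_Myd88_null against Myd88_null. Their fit took 1 estimate of spread per gene from all 19 arrays, so p-values in these contrasts are not independent. The first gave 107 calls (1.26%) and the second 13 (0.153%), from groups of unequal size. Both counts hung on single arrays. The 107 became 16 without WT 5, 19 without WT 2, 253 without Myd88_null 4 and 403 without Myd88_null 1, and the 13 ran from 2 without Myd88_null 4 or Ager_Myd88_null 3 to 446 without Myd88_null 1. With the S block the counts were 59 and 5. Of the 22 pooled calls, 14 were called in the first contrast, 7 in the second, 5 in both and 6 in neither. H2-Bl differed by 2.13 ± 0.22 with Myd88 and 2.98 ± 0.26 without it, and Riok2 by -2.05 ± 0.28 and -1.54 ± 0.32. Abca3 differed by 2.85 ± 0.34 and 1.76 ± 0.40, and Glo1 by 0.83 ± 0.09 and 0.62 ± 0.11. The interaction had an unadjusted p under 0.05 for 4 of the 22, namely H2-Bl, Meiob, Cbs and Tedc2, and passed the adjusted threshold for Tedc2 alone (limma). Every one of the 22 had the same sign in both backgrounds, which the pooled test favours, whereas 3077 of all tested genes did (36.1%).

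Calls in one background were therefore read in the other, although the shared estimate of spread makes this no independent repeat. Of the 107 genes called in Ager_null against WT, 39 (36.4%) had the same sign in the Myd88-deficient background and 15 (14%) had it with an unadjusted p under 0.05. The same criterion was met by 382 of all tested genes (4.49%). On chromosome 17, 15 of 17 such genes (88.2%) kept their sign and 12 (70.6%) did so at that level. Of the 400 tested there, 154 (38.5%) and 46 (11.5%) did. Elsewhere, 24 of 90 (26.7%) kept their sign, 3 (3.33%) at that level, against 36% and 4.14% of all tested genes elsewhere. The opposite sign at that level was seen in 12 (13.3%), near the 11.4% of all tested genes elsewhere. With the S block the counts with the same sign at that level moved to 5 of 8 genes on chromosome 17 and 9 of 51 elsewhere. The matching shares of all tested genes under the block were not counted. In the other direction, of the 13 genes called in Ager_Myd88_null against Myd88_null, all 7 on chromosome 17 had the same sign at an unadjusted p under 0.05 in Ager_null against WT. Of the 6 elsewhere, 2 had the same sign and 0 of these reached that level, while 3 (50%) had the opposite sign at that level. The share of all tested genes with the opposite sign there was not counted, so nothing is read from those 3. The same sign at that level in Ager_null against WT was seen in 503 of all tested genes (5.91%). The 15 of 107 became 7 of 16 without WT 5 and 9 of 19 without WT 2, so the share at that level also hung on single arrays.

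**Figure D4:**
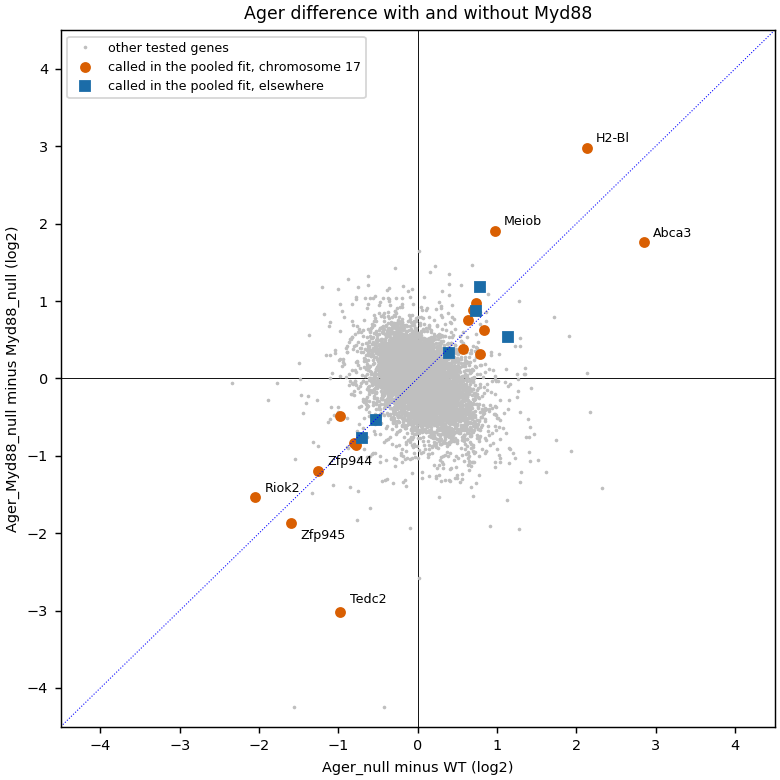
Ager difference with Myd88 (Ager_null minus WT, x axis, log2) against that without it (Ager_Myd88_null minus Myd88_null, y axis, log2) for the 8515 tested genes, with the pooled calls coloured by chromosome. All 22 pooled calls lie in the lower-left or upper-right quadrant, as do 36.1% of all genes.

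The test of whether the Ager difference depended on Myd88 called 205 genes (2.41%), of which 14 lie on chromosome 17, and 2319 genes (27.2%) had an unadjusted p under 0.05. The 5 genes with the smallest p had differences of opposite sign in the 2 backgrounds and are absent from the pooled calls. Atxn2, an RNA-binding protein, differed by 1.15 ± 0.21 with Myd88 and -0.90 ± 0.25 without it. Pim1, a serine/threonine kinase induced by STAT signalling, differed by 1.62 ± 0.31 and -1.22 ± 0.36. Zfyve1, a protein of endoplasmic reticulum membranes, differed by 1.17 ± 0.23 and -0.91 ± 0.27. Ccdc122 differed by -0.96 ± 0.20 and 0.87 ± 0.24, and Setd4, a methyltransferase, by -0.63 ± 0.22 and 1.33 ± 0.26. Their interactions all had a limma adjusted p of 0.025. The count hung on single arrays, at 0 without Myd88_null 3, Myd88_null 4 or Ager_Myd88_null 3 and 1739 without Myd88_null 1. With the S block limma called 0 genes, and 1128 had an unadjusted p under 0.05. No group of genes is therefore described from the interaction.

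Genes around RAGE itself were read from gene lists. In 35 lists, 25 of pathways and 10 of cell type markers, 506 distinct genes were tested and 5 were called, namely Glo1, H2-Bl, Riok2, Tbl3 and Gfer. All 5 lie on chromosome 17. Of the 35 lists, 31 held no gene called in the pooled fit. An unadjusted p under 0.05 was seen for 63 list genes (12.5%), against 763 of all tested genes (8.96%, made up of 433 higher, 5.09%, and 330 lower, 3.88%). List medians ran from -0.23 for the circadian clock to 0.33 for class II antigen presentation, around a median of 0.014 for all tested genes. Of all tested genes 4565 (53.6%) were above 0 and 3950 below, beside which the counts above or below 0 are to be read.

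Among the RAGE ligands, 0 of 9 tested genes passed and 0 had an unadjusted p under 0.05, with S100a13 at -0.17 ± 0.14 and Hmgb3 at -0.12 ± 0.13. In the glyoxalase list, 1 of 6 passed. Glo1 rose, while Akr7a5, an aldehyde reductase, was at 0.15 ± 0.07, Hagh, which completes the glyoxalase reaction, at -0.11 ± 0.07, and Glod4 at 0.09 ± 0.07. The Toll-like receptor list had 0 calls among 14 genes, and its member with the smallest p was Ly96, the co-receptor of TLR4, at -0.30 ± 0.14 (limma adjusted p = 0.54). Of 18 NF-kB targets and cytokines 0 were called, and 1 had an unadjusted p under 0.05. Cxcl10 was at -0.76 ± 0.27 (limma adjusted p = 0.37) and the neutrophil chemokine Cxcl1 at -1.20 ± 0.58 (0.56). The interval of Cxcl1 was wide, from -2.42 to 0.02.

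Genes of the priming phase gave no call in the pooled fit. Of 23 immediate early genes, 19 were below 0 with a list median of -0.14, and 4 had an unadjusted p under 0.05. The median was 0.04 with Myd88 and -0.41 without it, and the interaction had an unadjusted p under 0.05 for 9 of the 23. The nuclear receptor gene Nr4a2 was at -1.40 ± 0.36 (limma adjusted p = 0.17) and the transcription factor gene Klf6 at -0.50 ± 0.17 (0.32). Klf6 was called in Ager_null against WT, at -0.82 (limma adjusted p = 0.048). Among 31 acute phase and IL-6/STAT3 genes 0 were called, with Crp at 0.21 ± 0.06 and Saa2 at -0.88 ± 0.31. Interferon response genes had 0 calls among 16, with Irf9 at -0.52 ± 0.18. Of 17 cell cycle and replication genes 0 were called, with the helicase subunit Mcm7 at 0.57 ± 0.15 and cyclin D1 (Ccnd1) at 0.34 ± 0.16. At an unadjusted p under 0.05, 2 acute phase genes were higher and 4 lower, 1 interferon gene was lower and 2 cell cycle genes were higher.

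Antigen presentation was represented on both sides of Ager. In the class I and peptide loading list 1 of 15 genes was called, H2-Bl, and the list median was -0.01. H2-M3, another nonclassical class I gene, was at -0.41 ± 0.14 (limma adjusted p = 0.36), the peptide-trimming protease Erap1 at -0.37 ± 0.14 and the loading chaperone Pdia3 at 0.18 ± 0.12. All 6 tested class II genes were above 0, while 0 were called and 0 had an unadjusted p under 0.05, with H2-Eb1 at 0.41 ± 0.30 and the invariant chain Cd74 at 0.38 ± 0.30. H2-Eb1 averaged 7.79 in WT, 7.68 in Ager_null, 6.25 in Myd88_null and 7.39 in Ager_Myd88_null livers. The low group was Myd88_null, of which Myd88_null 4 also had the lowest mean level of Kupffer cell and macrophage markers, 6.09. The part of that array in the class II values was not tested.

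The ribosome biogenesis list held 1 call in each direction. Of 37 ribosome biogenesis genes, Riok2 fell and Tbl3 rose, while Ltv1, a small-subunit assembly factor, was at 0.24 ± 0.08 and Nop16, a nucleolar protein, at 0.18 ± 0.09. Of 16 genes of EGF receptor, HGF and TGF-beta signalling, Gfer alone was called, lower on its brighter probe set, with Tgfbr1 at -0.30 ± 0.11, Tgfa at 0.25 ± 0.13 and Egfr at 0.35 ± 0.19. The other members of both lists did not pass.

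Metabolic lists held no call in the pooled limma fit. Of 22 gluconeogenesis and glycogen genes the smallest p was that of Gbe1, the glycogen branching enzyme, at -0.45 ± 0.10 (limma adjusted p = 0.089). With the S block Gbe1 was called, at -0.53 (limma adjusted p = 0.037). Among 13 lipid droplet and lipolysis genes, 1 was higher and 4 were lower at an unadjusted p under 0.05. G0s2, an inhibitor of triglyceride lipase, was at -2.04 ± 0.64 (limma adjusted p = 0.27), made up of -0.42 with Myd88 and -4.24 without it. The G0s2 difference without Myd88 was called in Ager_Myd88_null against Myd88_null (limma adjusted p = 0.025). Fitm1, a lipid droplet protein, was at -1.05 ± 0.34, made up of -1.77 with Myd88 and -0.06 without it. Its difference with Myd88 was called in Ager_null against WT (limma adjusted p = 0.036). In 20 cholesterol synthesis genes 0 were called and 0 had an unadjusted p under 0.05. Of 15 clock genes 11 were below 0, and 1 was higher and 4 were lower at an unadjusted p under 0.05. The list median was -0.10 with Myd88 and -0.59 without it. Clock was at 0.57 ± 0.21, made up of 1.01 with Myd88 and -0.03 without it, and Tef at -0.56 ± 0.25. The Clock difference with Myd88 was called in Ager_null against WT (limma adjusted p = 0.048).

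Stress lists had 0 calls in the pooled limma fit. In the unfolded protein and ER stress list 6 of 26 genes were higher and 1 lower at an unadjusted p under 0.05. Asparagine synthetase (Asns) was at 1.16 ± 0.40 and the ER co-chaperone Dnajb9 at -0.38 ± 0.13. Of 17 heat shock genes 4 were higher and 1 lower at that level, and the co-chaperone Stip1 was at 0.43 ± 0.11 and Bag3 at -0.73 ± 0.23. Stip1 was called in Ager_null against WT, at 0.59 (limma adjusted p = 0.049). Of 18 glucocorticoid-responsive genes 1 had an unadjusted p under 0.05, Ddit4, an inhibitor of mTORC1, at 1.32 ± 0.40 (limma adjusted p = 0.25).

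Cell type marker lists held 0 calls in the pooled limma fit. Of 14 stellate cell and fibroblast genes 12 were above 0 (85.7%, against 53.6% of all tested genes). Their median was 0.30, made up of 0.49 with Myd88 and 0.16 without it. At an unadjusted p under 0.05 were 6 of them (42.9%, against 8.96% of all tested genes), and 0 were called. The collagen gene Col1a2 was at 0.48 ± 0.13 (limma adjusted p = 0.19), made up of 0.72 with Myd88 and 0.16 without it. The Col1a2 difference with Myd88 was called in Ager_null against WT (limma adjusted p = 0.036). The receptor gene Pdgfrb was at 0.49 ± 0.14 (limma adjusted p = 0.21). The mean level of all 17 markers ran from 5.52 to 5.83 over the WT arrays, 5.68 to 6.30 over Ager_null, 5.78 to 6.11 over Myd88_null and 5.96 to 6.20 over Ager_Myd88_null arrays, and 10 of the 17 were over log2 4 on all arrays. Whether the stellate marker level moved with any called gene was not tested. In bulk tissue more cells of a type and more RNA per cell cannot be told apart. Hepatocyte markers had a median of 0.04 and endothelial markers 0.08. Kupffer cell and macrophage markers were above 0 in 14 of 17, with a median of 0.12 that combined -0.21 with Myd88 and 0.45 without it and was 0.32 with the S block. The 3 neutrophil, 2 erythroid and 1 cholangiocyte genes tested were below 0, with medians of -0.19, -0.21 and -0.21. The neutrophil median combined -0.40 with Myd88 and 0.40 without it and was 0.09 with the S block. The erythroid and cholangiocyte medians were below 0 in both backgrounds. Of 14 T and NK cell markers and 7 cholangiocyte markers, 0 exceeded log2 4 on all arrays. The B cell gene Igha was at 0.84 ± 0.25 (limma adjusted p = 0.24), made up of 1.35 with Myd88 and 0.14 without it. The Igha difference with Myd88 was called in Ager_null against WT (limma adjusted p = 0.033).

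**Figure D5:**
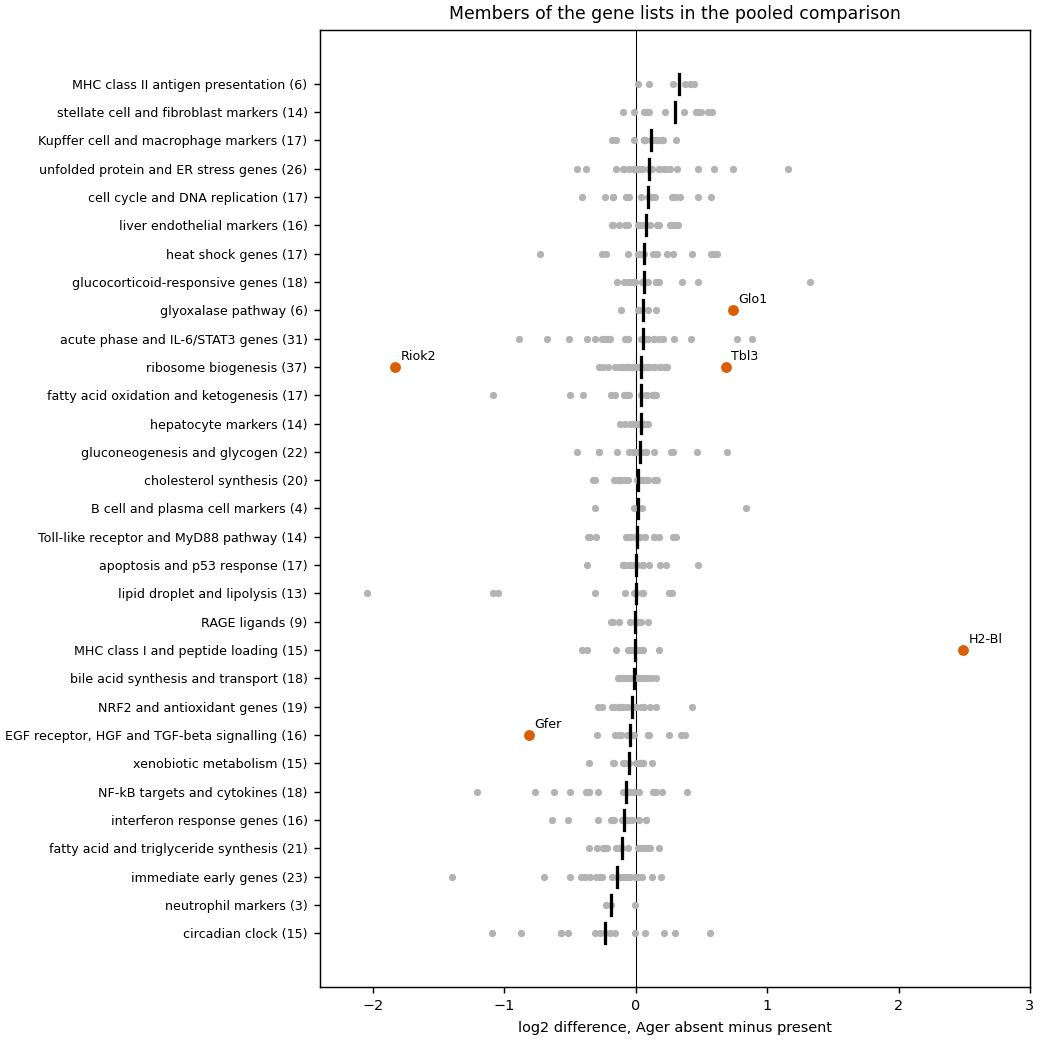
Pooled log2 difference of each tested member (points) of the 31 of 35 lists with at least 3 tested members, with the median of the list as a bar and the number tested in brackets. Called members (Glo1, H2-Bl, Riok2, Tbl3 and Gfer) are named, and the list medians lie between -0.23 and 0.33.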

How the data were processed

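Liver RNA of 19 mice was measured on Affymetrix arrays, and the authors deposited log2 values per probe set, made with GCRMA 2.16 per the submitters' processing notes. GCRMA corrects for background, normalizes between arrays and summarizes probes. Its other settings are not stated by the labels. The values ran from 0.743 to 15.6. A gene was its brightest probe set with 1 symbol in the platform annotation, and 8515 of 18193 genes, those that exceeded log2 4 on 4 or more arrays, were tested. Of the probe sets, 34945 carried 1 symbol, 932 several and 9160 none.

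The pooled difference was fitted with lmFit and eBayes (limma 3.58.1, R 4.3.3), with Ager and Myd88 genotype as terms. Differences by background and the interaction came from a fit of the 4 groups. Tests were two-sided with Benjamini-Hochberg adjustment, and a call needs an adjusted p under 0.05. Errors of differences are SEs, intervals are 95%, and fold values are those of the fit on the log2 scale. Gene order on chromosome 17 came from RefSeq's GRCm38.p6 annotation, which placed 8496 of the tested genes. On simulated arrays with 200 of 8515 genes changed, the pooled fit recovered 93.7% where the log2 change was 1 and 99.7% where it was 2, with 5.58% false among calls. Whether these shares hold for the real arrays was not tested. On those, 27.2% of tested genes had an interaction at an unadjusted p under 0.05 (limma). The number of arrays limits the precision.

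Genes named are the 12 largest rises and falls called on chromosome 17 and elsewhere, up to 4 members with the smallest p of each list with a call, up to 2 of each other list and the 5 smallest interaction p-values. Clone-named models were counted only. The comparison, gene lists and tests were chosen with earlier results of these data known. Alternatives covered the filter, the probe set rule, a floor at log2 4, renormalization, array weights, the covariate, S range, replicate number and leaving out each array. The last added ones, chosen after the data were seen, were every probe set of the called genes, probe sets without a symbol and values within S ranges.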

Additional observations from a re-analysis of the deposited data

Results flagged for a closer look

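Of 88 sets of arrays, 22 called genes in 4 groups, 7 held an array far from the rest of its group by Dixon's criterion, which chance meets in about 1 of 20. WT 4 read 7.63 for H2-Bl against 6.73 to 6.99 in the other WT livers, and Ager_null 6 read 9.73 against 8.87 to 9.16. Ager_null 1 was low for Glo1, at 13.66 against 13.85 to 13.94. Ager_Myd88_null 4 read 7.15 for Riok2 against 7.72 to 7.81. Myd88_null 1 was high for Gfer, at 10.89 against 10.42 to 10.49. Myd88_null 4, the array least like the others, was low for Inpp1, at 3.97 against 4.30 to 4.31, and for Ndrg1, at 7.30 against 8.04 to 8.18. H2-Bl, Glo1, Riok2, Gfer, Ndrg1 and Inpp1 kept their sign in every fit that left out 1 array, which their selection on these arrays favours. H2-Bl, Glo1, Riok2 and Gfer passed in all 19 of those fits, and Ndrg1 and Inpp1 in 16 each.

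The interaction of Ager and Myd88 passed in limma for Tedc2 (-2.05, adjusted p 0.048), Pim1 (-2.83), Atxn2 (-2.05), Zfyve1 (-2.07), Setd4 (1.95) and Ccdc122 (1.83). The adjusted p of the last 5 was 0.025. With the S ranges as a block the interaction called 0 genes.

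Probe sets without a gene symbol, outside the gene-level comparison, also held pooled differences. The probe set 1458719_at differed by 3.56 (limma adjusted p = 3.6e-10 over the 696 such probe sets) and 1435872_at by -3.65 (1.1e-05). Each was under the log2 4 of the filter in at least 1 group.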

How the results depend on the processing

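The pooled comparison called 22 genes, and between 17 and 26 under 9 of the 11 alternatives, the exceptions being 45 with S range as a block and 54 with array quality weights. Leaving out each array gave 15 to 34. The count elsewhere than chromosome 17, 6, became 29 with the S block, 11 with the replicate block and 33 with array weights, and 1 to 18 with an array left out. On chromosome 17 it stayed within 1.5 times of 16 throughout, at 13 to 17 with an array left out. The interaction, 205 genes, gave 76 without the filter, 0 with the S block (1128 at an unadjusted p under 0.05), 37 with the replicate block and 0 to 1739 with an array left out. Carry-over ran from 7 to 22 with an array left out and moved by no more than 1.5 times under the other settings, although its part on chromosome 17 fell from 12 to 5 with the S block, and that elsewhere rose from 3 to 9. With the mean of all probe sets, Gfer turned from -0.81 to 0.71 and Akr7a5, not called, from 0.15 to -0.0030. Of the 22 genes, 11 passed in every alternative that tested them and every fit with an array left out, and 14 in every one of the latter. Replicate numbers did not pair arrays, with a median correlation of deviations of 0.05 over 25 same-numbered pairs (0.005 over 109 others), and under the replicate block 26 genes were called, 18 of them among the 22. The causes of these shifts were not tested. Weak probe signal limited Ager itself and T and NK cell markers, which were under the filter, and left 1 cholangiocyte marker to test.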

Other observations

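The 27 genes called with S range as a block and not in the pooled fit, some named here after their values were seen, leaned to lower levels without Ager. Anpep, a membrane aminopeptidase, was at -0.89 ± 0.14 with the block and -0.25 in the pooled fit. Per2, a clock repressor, was at -1.44 ± 0.29 and -0.88, and the flavin monooxygenase genes Fmo2 and Fmo5 were at -0.80 ± 0.14 and -0.61 ± 0.10, against -0.58 and -0.36. The interferon regulatory factor gene Irf2 was at -0.83 ± 0.13 and -0.53, and Kitl, the ligand of the receptor KIT, at -0.74 ± 0.14 and -0.68. All 6 Ager_null arrays fall in 1 of the S ranges, so these values rest on few arrays with Ager in that range, WT 5 and Myd88_null 4.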
